A study of Mus musculus with 6 samples.

Results

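The regions described here are the 5hmC peaks of the last 5 Mb of each mouse autosome, the subtelomeric stretch next to the chromosome end. A peak belongs to them when its midpoint lies within 5 Mb of the mm9 end of chromosomes 1 to 19, a rule that uses position alone. They are 1532 of the 20583 peaks of the control list and 3859 of the 53374 peaks of the injury list, 5391 of 73957 in all. The peaks come from brain tissue of C57BL/6 mice, 3 with ischemic injury (I/R) and 3 matched controls. Genomic DNA was enriched for 5hmC by hMe-Seal, a chemical labelling of 5hmC followed by capture of the labelled fragments, and sequenced. The labels give no transgene, and no age, sex, duration of ischemia or time after it. One peak list per group was used, so no value has a replicate error, and no difference between the groups could be tested against the spread between mice. Intervals are 95% intervals that cover counting error only, and the sequencing depth behind each list is unknown.

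5-Hydroxymethylcytosine (5hmC) is made from 5-methylcytosine by the TET dioxygenases, and it is a step on the way to unmethylated cytosine as well as a lasting mark. It is more abundant in brain than in most tissues, above all in neurons, where it is known to lie over the bodies of active genes and at enhancers. Mouse chromosomes are telocentric: the centromere and its satellite DNA stand at the start of the assembled sequence, and the far end is the end of the long arm. That far end carries a telomere, an array of short repeats, and the sequence beside it ranges from gene-rich to gene-poor depending on the chromosome. The number of peaks in such a stretch reflects both 5hmC and the sequence that reads can be placed on. No mm9 gene annotation, genome sequence or track of assembly gaps was used, so regions are given by position, with no gene named and no sequence printed.

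The last 5 Mb of the autosomes held more peaks per Mb than the rest of the same chromosomes, in both groups. They make up 3.84% of the autosomal length and held 7.45% of the autosomal control-list peaks and 7.23% of the autosomal injury-list peaks. The control list had 16.1 peaks per Mb there (15.3 to 16.95) and the injury list 40.6 (39.3 to 41.9). In the rest of the autosomes from 3 Mb on these densities were 8.20 (8.08 to 8.32) and 21.3 (21.1 to 21.5). The density ratio of the distal stretch to the rest was thus 1.97 (1.87 to 2.07) for control and 1.90 (1.84 to 1.97) for injury. Control-list peaks covered 5.24% of the distal sequence and injury-list peaks 10.8%, against 2.50% and 5.32% of the rest. The opposite, centromere-proximal end was sparser: the first 5 Mb after the 3 Mb start held 587 control-list and 1440 injury-list peaks, and the distal density was 2.61 times (2.37 to 2.87) and 2.68 times (2.52 to 2.85) theirs. Peaks that stand side by side are not separate draws, which makes the intervals narrower than they should be.

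**Figure D1:**
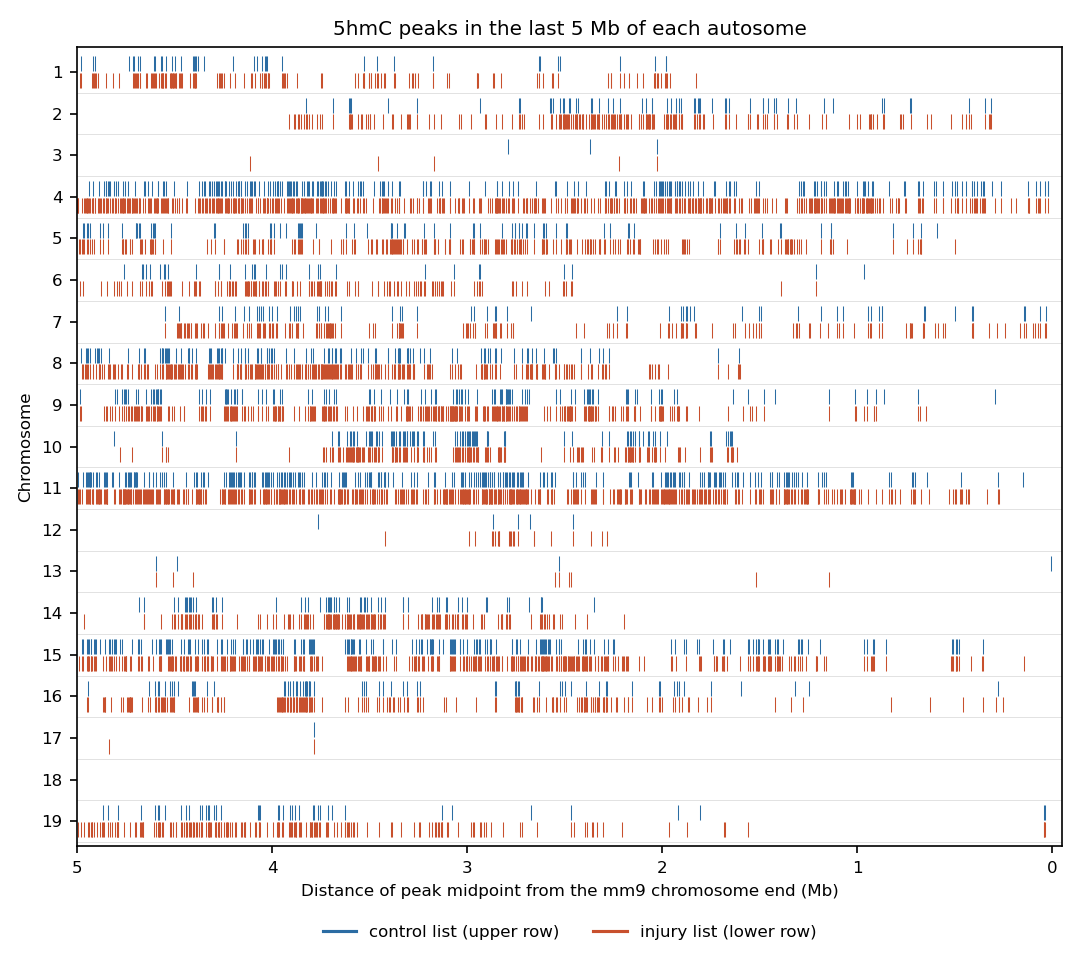
Every 5hmC peak in the last 5 Mb of the 19 autosomes, by the distance of its midpoint from the mm9 chromosome end in Mb; for each chromosome the control list is the upper row and the injury list the lower row. Chromosomes 4, 11 and 15 are filled along most of the stretch, chromosome 18 has no peak, and chromosome 17 has 1 control-list and 2 injury-list peaks.

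The density was not highest at the end itself. In the outermost 1 Mb of the 19 autosomes there were 90 control-list and 201 injury-list peaks, or 4.74 (3.81 to 5.82) and 10.6 (9.17 to 12.1) per Mb, below the rest of the autosomes in both lists. The second Mb held 218 and 495 peaks, the third 332 and 963, the next 443 and 1155, and the fifth 449 and 1045. Density therefore rose inward to 23.6 peaks per Mb in the fifth Mb of the control list and 60.8 between 3 and 4 Mb in the injury list. Within the outermost Mb, steps of 0.25 Mb from the end inward held 14, 26, 22 and 28 control-list peaks and 25, 54, 49 and 73 injury-list peaks, lowest at the end and highest in the innermost step, with a dip in the third. The border at 5 Mb did not fall on a step. The stretch from 5 to 10 Mb held 2021 control-list and 4941 injury-list peaks, more than the last 5 Mb, and the density of the last 5 Mb was 0.758 (0.709 to 0.810) and 0.781 (0.749 to 0.815) times that of its neighbour. With the last 2 Mb alone the ratio to the rest was 0.952 (0.848 to 1.07) for control and 0.827 (0.766 to 0.891) for injury, and with the last 10 Mb it was 2.45 (2.36 to 2.54) and 2.31 (2.26 to 2.37).

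**Figure D2:**
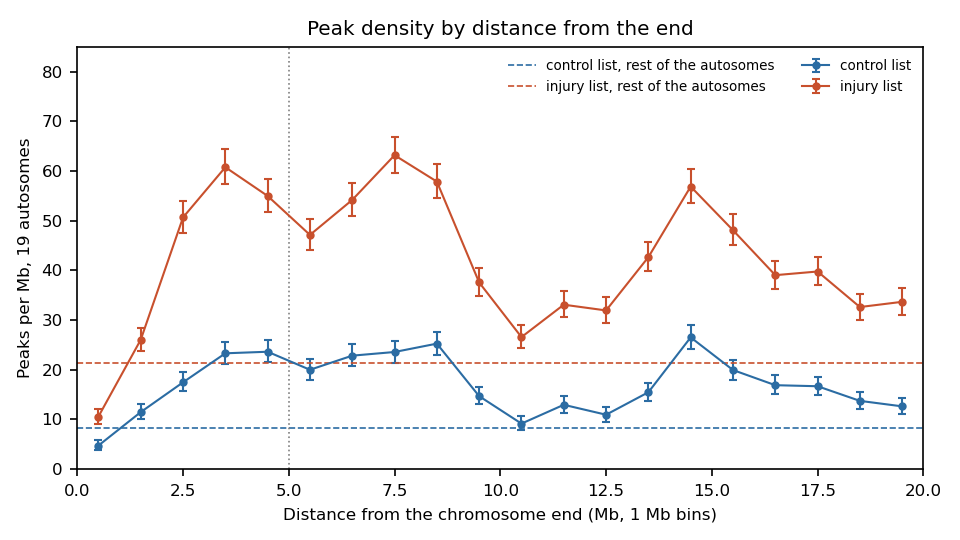
Peaks per Mb over the 19 autosomes in 1 Mb bins by distance from the chromosome end, with exact Poisson 95% intervals; dashed lines give the rest of the autosomes from 3 Mb on (8.20 control, 21.3 injury) and the dotted line the 5 Mb border. Both lists start below their dashed line and pass it in the second Mb.

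The 19 ends differed widely from each other, and in a similar order in both lists. In the control list the number of peaks per end ran from 0 to 270 with a median of 62, and in the injury list from 0 to 566 with a median of 188. The 5 fullest ends, those of chromosomes 4, 8, 9, 11 and 15, were the same in both lists and held 62.9% of the distal control-list peaks and 55.4% of the distal injury-list peaks. The 5 emptiest, those of chromosomes 3, 12, 13, 17 and 18, were also the same and together held 13 control-list and 38 injury-list peaks, which is 0.849% and 0.985%. Across the 19 ends the peak numbers of the lists had a Pearson correlation of 0.972 and a Spearman correlation of 0.951. This is a description of places that share their sequence and mappability in both groups.

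The fullest ends lay on chromosomes 4, 11 and 15. Chromosome 4 held 237 control-list and 566 injury-list peaks in its last 5 Mb, or 47.4 and 113.2 per Mb, against 10.9 and 25.9 in the rest of the chromosome. Its density ratio was 4.36 (3.79 to 5.00) for control and 4.37 (3.998 to 4.78) for injury, and peaks covered 17.1% and 35.0% of the stretch. It also had the most peaks of any end in the outermost Mb, 35 and 72. Chromosome 11 held 270 and 547 peaks, 3.98 times (3.48 to 4.53) and 3.39 times (3.09 to 3.71) the density of the rest, and was covered to 19.5% and 33.2%. Chromosome 15 held 212 and 413 peaks, 4.44 times (3.81 to 5.17) and 3.35 times (3.01 to 3.72) the density of the rest, and was covered to 14.2% and 21.3%. For chromosomes 9 and 11 the last 5 Mb was the fullest of all 5 Mb windows of the chromosome in both lists, 24 windows on chromosome 9 and 23 on chromosome 11. For chromosomes 4, 8 and 15 it was the second fullest in both lists.

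A middle group had moderately raised densities. The end of chromosome 8 held 120 control-list and 289 injury-list peaks (density ratios 2.38 and 2.28), and that of chromosome 9 held 24.8 and 64.8 per Mb (2.95 and 2.80). The end of chromosome 14, a chromosome poor in peaks elsewhere, held 61 and 174 (2.94 and 2.62), that of chromosome 16 held 72 and 202 (2.38 and 2.58), and that of chromosome 10 held 91 and 170 (2.29 and 1.71). Ratios below 2 in both lists were found for chromosomes 1, 2, 5, 6, 7 and 19. On chromosome 19 the lists gave unlike values: its end held 45 control-list peaks, 0.832 times (0.600 to 1.13) the density of the rest, and 191 injury-list peaks, 1.44 times (1.23 to 1.67). In all, 12 of 19 ends had a density ratio whose interval lay above 1 in the control list and 14 of 19 in the injury list. Among all 5 Mb windows of the autosomes that share was 28.3% of 473 (control) and 36.4% (injury).

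**Figure D3:**
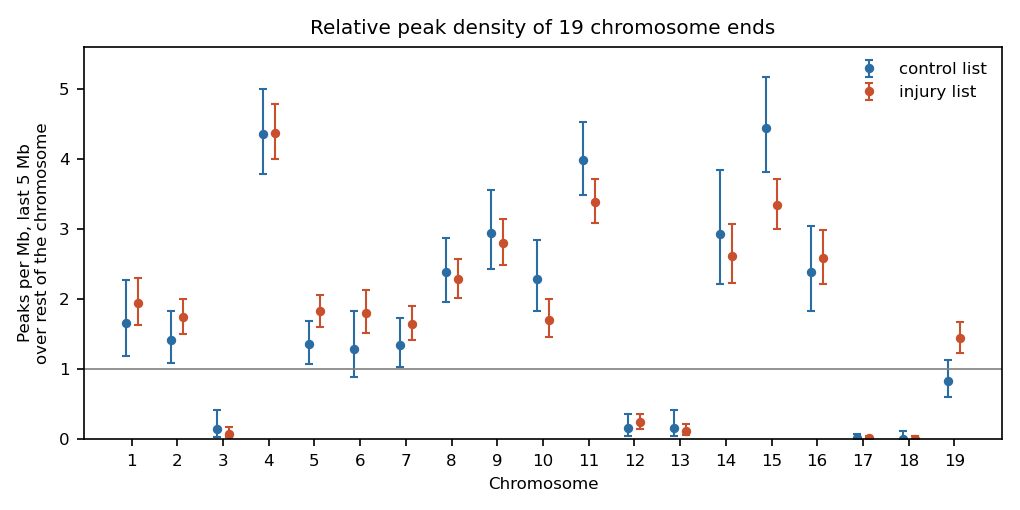
Peaks per Mb in the last 5 Mb of each autosome divided by peaks per Mb in the rest of the same chromosome from 3 Mb on, with exact conditional binomial 95% intervals; the line marks equal density. The ends of chromosomes 4, 11 and 15 lie above 3 in both lists and those of chromosomes 3, 12, 13, 17 and 18 at 0.24 or less.

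The 5 emptiest ends had fewer peaks per Mb than the rest of their own chromosomes, which were themselves unlike. The rest of chromosomes 3, 12, 13 and 18 was sparser than that of the autosomes together, from 4.27 (chromosome 3) to 6.74 (chromosome 18) control-list and from 13.8 to 18.9 injury-list peaks per Mb. In its rest, chromosome 17 had the highest densities of the 19 autosomes (14.3 per Mb in the control and 32.7 in the injury list), yet its last 5 Mb held 1 control-list and 2 injury-list peaks. Its single control-list peak (91486527 to 91489174, 2.65 kb) had a score of 3100, a value that stands at rank 3 in the whole control list, tied with other peaks, and first among the distal peaks. The injury-list peak over it (91486585 to 91489639) had a score of 686.2 and rank 314 in its own list. The other injury-list peak (90435620 to 90436879) had a score of 52.89, close to the floor of 50. Chromosome 18 held no peak in the last 5 Mb of either list, and its outermost peaks lay 5.74 Mb (control list) and 5.71 Mb (injury list) from the end. For this count of 0 over 5 Mb, the interval of the density ratio to the rest of the chromosome reached up to 0.110 (control) and 0.0390 (injury). The densities in that rest were 6.74 (control) and 18.9 (injury) peaks per Mb.

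On chromosome 3 the last 5 Mb held 3 control-list and 5 injury-list peaks. Only 1 place was found in both lists, at 157573863 to 157575471 in the control list (score 354) and 157573999 to 157575258 in the injury list (score 99.24), and it was also the outermost peak of both. On chromosome 13 there were 4 and 9 peaks, of which 2 in each list overlapped the other. The outermost control-list peak, chr13:120275329-120282437 (7.11 kb, score 144.67), had its midpoint 5.12 kb from the end of the assembled chromosome. It was the distal peak closest to any end, and the nearest injury-list peak was 1135 kb away. On chromosome 12 there were 5 control-list and 22 injury-list peaks, and all of the injury-list peaks but 1 lay between 2 and 3 Mb from the end. The highest-scoring of these (118799855 to 118801594, score 378.5) overlapped a control-list peak (score 121.95), whereas the widest (118292974 to 118298446, 5.47 kb, score 324.53) lay 90.2 kb from the nearest control-list peak.

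The outer limit of 5hmC peaks was close in both groups at some ends and far apart at others. The outermost peaks of the lists lay within 50 kb of each other on 9 of the 18 ends that had peaks, with a median distance of 60.1 kb over the 18. On chromosome 2 both lay 316 kb from the end, on chromosome 7 they lay 31.3 kb (control list) and 31.0 kb (injury list) from it, and on chromosome 19 37.5 and 37.4 kb. Chromosome 4 reached to 19.6 kb in the control list and 24.3 kb in the injury list. The limits lay farther apart on chromosome 13 (5.12 kb in the control list, 1144 kb in the injury list), chromosome 9 (294 and 648 kb) and chromosome 6 (964 and 1214 kb). Of the 18 ends with peaks, 7 had none in their outer 1.5 Mb, and the same 7 did so in both lists, those of chromosomes 1, 3, 8, 10, 12, 14 and 17; the end of chromosome 18 was empty throughout. Chromosome 14 was empty for the outer 2.35 Mb in the control list and 2.20 Mb in the injury list, and then held 35 and 110 peaks between 3 and 4 Mb alone. Some borders faced inward: on chromosome 2 neither list had a peak between 4 and 5 Mb from the end, although the third Mb held 23 and 84. Peak-free stretches may include assembly gaps or sequence on which reads cannot be placed, and their part in these limits was not tested.

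The ratio of injury-list to control-list peaks at the chromosome ends was near that of the rest of the genome. Injury-list peaks made up 71.6% (70.4 to 72.8%) of the peaks of both lists in the last 5 Mb and 72.2% (71.9 to 72.6%) in the rest, a difference of -0.649 percentage points (-1.92 to 0.599). The interval was wholly negative for the last 2 Mb (difference -2.90), the last 10 Mb (-1.14) and peaks merged within 1 kb (-1.51). In the adjacent 5 to 10 Mb the share was 71.0% (69.9 to 72.0%) and in the first 5 Mb after 3 Mb it was 71.0% (69.0 to 73.0%). Since the number of peaks a caller reports depends on depth, the share itself is a property of the lists. Of the 75 distal 1 Mb windows with any peak, 70 held more injury-list than control-list peaks, which is 93.3%, against 91.9% of all such windows of the autosomes. The 3 windows with more control-list peaks were chr3:156600001-157600000 (3 control-list and 2 injury-list peaks) and the outermost Mb of chromosomes 6 and 13, with 1 control-list peak and no injury-list peak each. Counts this small separate nothing.

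Single ends differed more in this share than the sum does. It was highest at the ends of chromosome 6, with 33 control-list and 149 injury-list peaks (81.9%, 75.5 to 87.2%), chromosome 12, with 5 and 22 (81.5%, 61.9 to 93.7%), and chromosome 19, with 45 and 191 (80.9%, 75.3 to 85.7%). It was lowest, among ends with at least 20 peaks, on chromosome 10 with 91 and 170 (65.1%, 59.0 to 70.9%), chromosome 15 with 212 and 413 (66.1%, 62.2 to 69.8%) and chromosome 11 with 270 and 547 (67.0%, 63.6 to 70.2%). The interval lay above the value for the rest of the same chromosome at 2 of 15 ends, chromosome 5 (75.9% against 70.1%) and chromosome 19 (80.9% against 71.1%). It lay below it at 3 of 15, chromosome 10 (against 71.5%), chromosome 11 (against 70.4%) and chromosome 15 (against 72.1%). The same rule put 9.21% of 380 windows of 5 Mb over the autosomes above and 7.63% below, and 15 ends are too few to set apart from that. The share differed between windows of unlike fullness. Among distal windows with more than 80 peaks it was 70.4% (69.0 to 71.8%), and among those with 21 to 80 it was 76.6% (74.0 to 79.2%). Distal windows with 1 to 20 held only 32 control-list and 67 injury-list peaks. Their share was 67.7% (57.5 to 76.7%), an interval that takes in the 76.6%. In other windows of the autosomes the share was lower in fuller classes. It was 69.3% (68.8 to 69.8%), 74.9% (74.4 to 75.5%) and 75.9% (74.9 to 77.0%) in the same order.

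**Figure D4:**
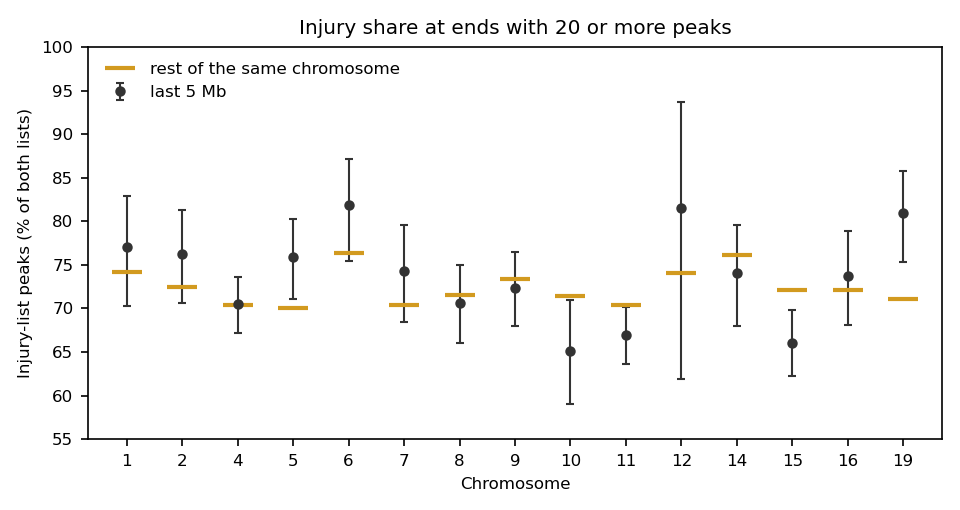
Injury-list peaks as a percentage of the peaks of both lists in the last 5 Mb of the 15 chromosomes with at least 20 peaks there (dots, exact binomial 95% intervals; the axis starts at 55%) and in the rest of the same chromosome (bars). Chromosomes 5 and 19 lie above their bar and chromosomes 10, 11 and 15 below it by more than the interval.

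Most control-list peaks near the chromosome ends were also found in the injury list. Of the 1532 distal control-list peaks, 1297 (84.7%, 82.8 to 86.4%) touched an injury-list peak with 1 bp or more, against 81.1% (80.5 to 81.6%) in the rest of the autosomes. The other 235, or 15.3%, had no counterpart, against 18.7% of all autosomal control-list peaks. Of the 3859 distal injury-list peaks, 1425 (36.9%, 35.4 to 38.5%) overlapped a control-list peak, against 34.0% (33.5 to 34.4%) in the rest. This left 2434, or 63.1%, in the injury list alone, against 65.8% of all autosomal injury-list peaks. Where an overlap of 50% of both peaks was required, the interval of the difference from the rest took in equal sharing in both lists. In bases, the lists had 3.75 Mb in common in the distal stretch, which was 75.3% of its control-list bases and 36.5% of its injury-list bases. In the rest the common part was 72.1% and 33.9%. Unshared distal peaks lay closer to the other list than those of the rest, but not than those of the adjacent 5 to 10 Mb. The median distance to its nearest peak was 3.64 kb for distal control-list peaks, 5.02 kb in the rest and 3.26 kb in the adjacent stretch. For injury-list peaks it was 8.90, 12.6 and 8.10 kb. Sharing was also higher in the adjacent stretch, at 87.1% (85.5 to 88.5%) for control-list and 38.7% (37.3 to 40.0%) for injury-list peaks. For injury-list peaks the interval of that difference took in equal values.

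Sharing of control-list peaks was higher in fuller surroundings, and sharing in both lists was higher at high scores. In 1 Mb windows with more than 80 peaks of both lists, 86.6% (84.6 to 88.4%) of distal control-list peaks were shared, against 86.4% (85.7 to 87.0%) in other such windows. In windows with 21 to 80 peaks the values were 78.2% (72.6 to 83.2%) and 77.7% (76.7 to 78.7%), and in windows with 1 to 20 peaks 59.4% (40.6 to 76.3%) and 60.2% (57.7 to 62.7%). In all 3 classes the interval of the distal peaks took in the value found elsewhere. Of the 95 distal windows 31 had more than 80 peaks (32.6%), compared with 11.5% of the other windows. For the injury list the shared part was 40.2% (38.4 to 41.9%) in distal and 42.1% (41.5 to 42.8%) in other windows with more than 80 peaks, and 25.6% (22.6 to 28.7%) and 28.0% (27.4 to 28.6%) with 21 to 80. Distal peaks thus had the lower value in both of these classes, although theirs was the higher over all windows (36.9% against 34.0%). The distal interval took in the other value with 21 to 80 peaks but not with more than 80. With 1 to 20 peaks the shared part was 31.3% (20.6 to 43.8%) in distal and 20.1% (18.9 to 21.2%) in other windows, so the order of the distal and other values was the opposite there. Within deciles of each list by score, distal control-list peaks ran from 72.8% shared in the lowest decile to 96.0% in the highest, and distal injury-list peaks from 14.9% to 80.7%. The distal and other peaks had separate intervals in 1 decile of each list. In the third decile of the control list 86.8% (80.5 to 91.6%) of distal and 69.9% (67.8 to 72.0%) of other peaks were shared. In the highest decile of the injury list 80.7% (76.8 to 84.1%) of distal and 85.3% (84.2 to 86.3%) of other peaks were shared.

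**Figure D5:**
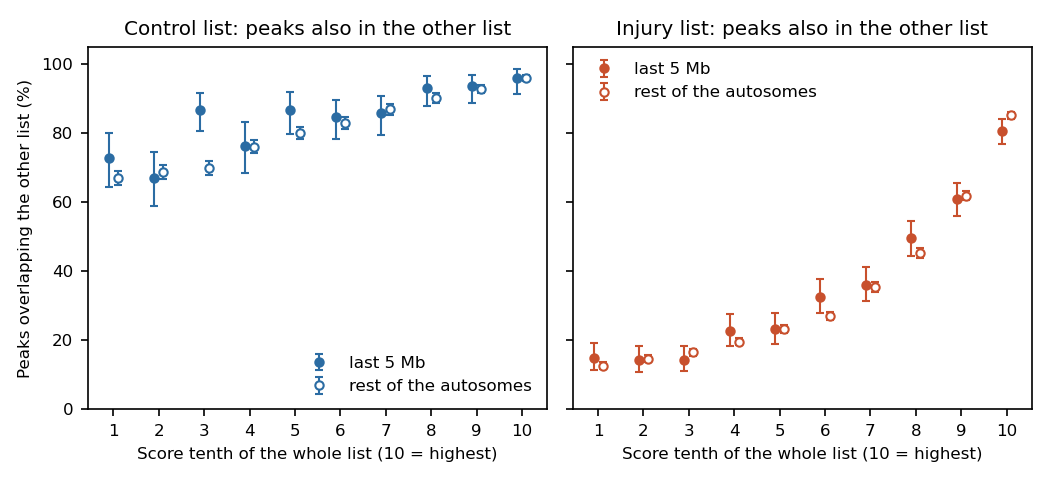
Percentage of peaks that overlap a peak of the other list by at least 1 bp, by score decile of the whole list (10 is the highest), for the last 5 Mb (filled) and the rest of the autosomes (open), with exact binomial 95% intervals. Sharing is higher at high scores in both places, though not at every step, with 14.9% in the lowest and 80.7% in the highest decile of the distal injury-list peaks.

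Among ends with at least 20 control-list peaks, sharing was highest on chromosome 4, where 218 of 237 control-list peaks (92.0%, 87.8 to 95.1%) had an injury-list counterpart, and on chromosome 8, with 108 of 120 (90.0%, 83.2 to 94.7%). It was lowest on chromosome 6 with 25 of 33 (75.8%, 57.7 to 88.9%) and chromosome 2 with 47 of 62 (75.8%, 63.3 to 85.8%). In the injury list the shared part ran, among the same ends, from 17.4% (11.7 to 24.5%) on chromosome 6 to 49.4% (41.7 to 57.2%) on chromosome 10. These are also the ends with the highest and the lowest injury share of peaks, 81.9% and 65.1%. The 2 measures are tied by counting, since fewer control-list peaks per injury-list peak leave fewer to overlap.

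Distal peaks were a little wider and stood closer together than those of the rest, but not than those of the adjacent 5 to 10 Mb. In that stretch median widths were 2805 bp (control list) and 2194 bp (injury list), and median scores 84.4 and 97.1. Another peak of the same list stood within 5 kb for 58.3% and 78.9% of the peaks there. Median widths were 2765 bp for distal and 2644 bp for other control-list peaks, and 2146 bp against 2050.5 bp among injury-list peaks. The caller's score, the authors' own value for each peak, had a median of 82.8 against 79.3 among control-list peaks and of 92.4 against 87.0 among injury-list peaks. The highest-scoring decile of the whole control list held 9.73% (8.29 to 11.3%) of the distal peaks, and that of the injury list 12.2% (11.2 to 13.3%). In the 962 distal places where exactly 1 peak of each list met, the control-list peak had a median width of 2745 bp and its partner one of 2723 bp, and the midpoints were a median of 296 bp apart. In 52.7% (49.5 to 55.9%) of these places the injury-list partner was narrower, against 53.9% (53.0 to 54.8%) in the rest. Another peak of the same list stood within 5 kb for 55.2% (52.6 to 57.7%) of distal control-list peaks and 77.2% (75.8 to 78.5%) of distal injury-list peaks, against 48.6% and 69.7% in the rest. Within 100 kb of the 5 Mb border, 39 control-list peaks lay inside and 29 outside, with median scores of 69.9 and 93.8, and 87 injury-list peaks inside and 79 outside, with 110.25 and 104.72. The highest-scoring of them just outside were chr15:98433520-98438961 of the control list (score 726.91) and chr15:98470550-98479659 of the injury list (score 1096.35). Just inside they were chr5:147588857-147596675 (score 475.59) and, over it, chr5:147587183-147596489 of the injury list (score 604.64).

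Runs of peaks with gaps of at most 5 kb marked the fullest places. Of 979 such runs in the distal control list, counting single peaks, 41 (4.19%, 3.02 to 5.64%) had 5 or more peaks, against 2.23% (1.99 to 2.50%) in the rest. In the distal injury list it was 187 of 1634 (11.4%, 9.94 to 13.1%) against 8.10% (7.76 to 8.45%). The longest distal run of the injury list was chr11:118977895-119158018, with 36 peaks over 180.1 kb, of which they covered 77.5%. The control list had 21 peaks there that covered 49.1% of it, among them its second longest distal run (119023701 to 119088417, 10 peaks over 64.7 kb). The next 2 injury-list runs were neighbours on chromosome 4, with 31 peaks over 137.5 kb (151701413 to 151838914) and 19 peaks over 106.6 kb (151852494 to 151959136). The longest and the third longest control-list runs lay within or across them (151855772 to 151937282, 11 peaks over 81.5 kb, and 151701218 to 151761308, 9 peaks over 60.1 kb). The same places on chromosomes 4 and 11 therefore held the longest distal runs of both lists, with longer runs in the injury list. Runs also reached farther in the injury list in the rest of the autosomes, up to 290.6 kb against 107.5 kb in the control list. Run length depends on the number of peaks in a list, so it shows no change of a domain. The fullest distal 1 Mb windows were chr11:116844001-117844000 (78 control-list and 145 injury-list peaks), chr4:150630001-151630000 (64 and 145) and again chr11:117844001-118844000 (63 and 135).

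The highest-scoring distal peaks of each list were all present in the other list, some near its top and some far down. After the chromosome 17 peak, the best of the control list was chr15:100881776-100885998 (4.22 kb, score 2454.52, rank 24 in the whole list). Of the 2 injury-list peaks over it the better had a score of 272.09 and rank 3930. A pair of control-list peaks followed on chromosome 7, at 150644152 to 150650155 (6.00 kb, score 1629.79) and at 149266752 to 149269428 (2.68 kb, score 1268.16). Their injury-list counterparts had scores of 176.8 and 216.84, and ranks 9061 and 6231. The fifth, chr4:153704567-153710956 (6.39 kb, score 1124.95, rank 104), lay wholly inside an injury-list peak of 11.5 kb with a score of 726.17 and rank 253. Scores are on the scale of their own list, and ranks in lists of unlike length show no change.

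The leading distal injury-list peaks were broader, and so was the best control-list peak over each of them (7.49 to 14.4 kb). First came chr9:121670128-121678379, an 8.25 kb region with a score of 1382.3 (rank 17 in the whole list), of which control-list peaks covered 88.8%. Next was chr4:154527834-154536712, 8.88 kb wide, which scored 1338.65 (rank 18) and was covered to 90.1%. A 13.1 kb peak at chr10:126984993-126998084 scored 1099.93 (rank 49, covered to 96.7%). The peak at chr11:119869303-119877301, of 7.999 kb, reached 937.32 (rank 100) and lay wholly under a control-list peak. Another on chromosome 4, chr4:155539862-155555256 with 15.4 kb, reached 922.63 (rank 108, covered to 93.4%). The first 4 met control-list peaks with ranks of 141, 259, 445 and 267. The last one, only 82.4 kb from the end of chromosome 4, met a control-list peak of nearly the same extent (155539926 to 155554299, 14.4 kb) with a score of 107.93 and rank 6185. The widest distal peaks were on chromosome 15 in the control list (99251145 to 99269977, 18.8 kb, score 236.72) and on chromosome 8 in the injury list (126825130 to 126845181, 20.1 kb, score 67.41). They overlapped 2 and 3 peaks of the other list.

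Peaks of 1 list alone were found both beside peaks of the other list and far from them. Among distal injury-list peaks with no control-list overlap, the best score, 558.88, belonged to an 11.5 kb peak at chr11:117167037-117178553, 5.43 kb from the nearest control-list peak. A 6.05 kb peak at chr5:149162735-149168782 scored 548.15 and was 5.47 kb from one. On chromosome 8, chr8:127437539-127449190 was 11.7 kb wide, scored 464.12 and stood 2.61 kb from one. Chromosome 10 had a pair farther off: chr10:127146506-127153508 (7.003 kb, score 516.37) and chr10:127155506-127159803 (4.30 kb, score 462.28) were 24.3 and 17.96 kb away from the control list. Among distal control-list peaks with no injury-list overlap, an 11.8 kb peak at chr11:117013710-117025540 led with a score of 376.93, but an injury-list peak lay 0.821 kb from it. The next, chr7:149851925-149854772 (2.85 kb, score 320.37), was isolated, with 88.1 kb to the nearest injury-list peak. On chromosome 4, chr4:154005920-154010138 (4.22 kb, score 297.42) stood 1.28 kb from one. Chromosome 5 had 2 such peaks side by side, chr5:147838190-147841691 (3.502 kb, score 273.35) and chr5:147833346-147837865 (4.52 kb, score 231.02), at distances of 18.4 and 13.9 kb. Among unshared distal peaks, 57 of 235 in the control list (24.3%) lay over 10 kb from the other list, against 35.4% in the rest. For the injury list it was 1165 of 2434 (47.9%), against 55.3%. The adjacent 5 to 10 Mb had lower values than the last 5 Mb, 22.2% and 45.2%. Whether each mouse of a group carried the unshared distal peaks is not known.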

How the data were processed

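5hmC-enriched DNA of 6 brain samples, 3 per group, was sequenced, and 1 peak list per group was used. CASAVA 1.4, Bowtie 0.12.9, MACS 1.4.2 and build mm9 are named without settings, per the submitters' processing notes. The sources used here do not give pooling of mice, input control or read depth. The authors deposited a position and a score per peak; the score starts at 50 and is taken to be MACS's scaled negative log10 of the p-value. A list's group is the one whose samples carry its name. Distances were taken from peak midpoints to mm9 lengths, and positions are printed counting from 1. The rest of the autosomes begins at 3 Mb. A peak was shared with an overlap of 1 bp or more. With 1 list per group no test was possible. Intervals are exact Poisson, exact binomial (Clopper-Pearson) or conditional binomial; those of differences combine both binomial intervals. The named regions follow a rule on rank by score, width and position within the last 5 Mb and near its border; the peaks of the emptiest ends, runs of peaks and outermost peaks were added after their values were seen. The members and rules were chosen with earlier results of these data known. The functions for overlap, nearest distance and distal membership were tested on 2850 simulated peaks with 0 mismatches. The other steps were not tested in this way. Tools were scipy 1.17.1, pandas 2.3.3, numpy 2.4.6 and matplotlib 3.10.9 under Python 3.11.15.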

Additional observations from a re-analysis of the deposited data

How the results depend on the processing

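Each distal value was set against the rest as a density ratio, a covered-base ratio, a ratio of median widths or scores, or a difference in percentage points for sharing, spacing (a peak of the same list within 5 kb) and injury share; pairs are control, then injury list. Above the control median score the density ratios were 2.10 and 2.01, the covered-base ratios 2.22 and 2.12 and the control score ratio 1.01. Above its 75th percentile they were 2.13 and 2.17, 2.26 and 2.25, and 0.970, which turned the last; injury-list sharing then differed by 0.0739 points and its spacing by 5.20. With only as many injury-list peaks as control-list peaks, taken by score, the injury density ratio was 2.10, its covered-base ratio 2.18, its spacing difference 4.65, the control sharing difference 5.84 and the injury-share difference 1.60 (51.5% against 49.9%). Merging peaks within 1 kb gave width ratios of 1.09 and 1.10 and an injury density ratio of 1.78. Injury share then differed by -1.51 points (-3.01 to -0.0361). An overlap of 50% of both peaks reduced the sharing differences to 1.49 (-1.05 to 3.98) and 1.39 (-0.037 to 2.85), intervals that took in equal sharing. Control sharing did so too above the median score (2.32, -0.572 to 4.99), above the 75th percentile (2.23, -2.16 to 6.22) and for the last 2 Mb. Injury-list sharing did so above the 75th percentile, with the reduced injury list (1.66, -0.873 to 4.16) and without chromosome 11 (1.51, -0.178 to 3.22). For the last 2 Mb the density ratios turned to 0.952 and 0.827, covered bases went to 1.01 and 0.873 and sharing to -1.50 and 5.27. Spacing went to -0.048 and -4.09, widths to 1.01 and 1.01 and injury share to -2.90 (-5.87 to -0.0397). For the last 10 Mb the density ratios were 2.45 and 2.31 and the covered-base ratios 2.67 and 2.56. Control sharing was 5.67, spacing 9.51 and 9.43, and the width and score of the injury list 1.07 and 1.10. Injury share was -1.14 (-2.02 to -0.263). Measured from the outermost peak, density ratios were 2.55 and 2.50 and covered-base ratios 2.72 and 2.71. Set against the adjacent 5 to 10 Mb, every value turned. Injury share was 0.611 (with 0 in its interval, as in the main comparison), density 0.758 and 0.781, and covered bases 0.740 and 0.750. Sharing was -2.43 and -1.73, spacing -3.13 and -1.74, width 0.986 and 0.978, and score 0.981 and 0.952. The interval also took in equal values for spacing in both lists, injury-list sharing, and control-list width and score. Without the 5 emptiest ends, an alternative chosen after seeing the data, density ratios were 2.52 and 2.47 and covered-base ratios 2.67 and 2.64. The cause of these moves was not tested.

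Leaving out each autosome in turn gave density ratios of 1.77 to 2.14 and 1.74 to 2.05, covered-base ratios of 1.84 to 2.29 and 1.81 to 2.20, sharing differences of 2.40 to 4.33 and 1.51 to 4.29, spacing differences of 3.79 to 8.34 and 5.98 to 8.48, width ratios of 1.03 to 1.06 and 1.03 to 1.06, score ratios of 1.03 to 1.05 and 1.03 to 1.08, and injury-share differences of -1.16 to 0.0672, above 0 without chromosome 11 or 15. No paired analysis was possible because the lists hold no values for single mice, which also left no mouse to leave out. Without read numbers, a peak missing from 1 list cannot be told from one below its detection limit.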
